A study of Mus musculus with 24 samples.

Results

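The proteasome subunit genes were the genes whose symbol, read from the RefSeq accession of each 3′UTR, begins with Psm, followed by one of the letters a to g and a number. They numbered 49 of the 20867 genes of the SLAM-seq tables. They comprised 8 genes of the 20S alpha ring, 7 of the constitutive 20S beta ring, 4 beta subunits of the immunoproteasome or thymoproteasome, 6 ATPases and 11 non-ATPase subunits of the 19S particle, 3 chaperones of 19S assembly, 4 chaperones of 20S assembly, 5 activators and 1 inhibitor. SLAM-seq follows the decay of RNA by labelling cells with 4-thiouridine (4SU), which sequencing reads as C once it has been alkylated. The question was whether loss of the terminal uridylyl transferases TUT4 and TUT7, which add uridines to RNA 3′ ends, changed the half-life, labelling or abundance of the transcripts that encode the proteasome.

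The cells were Meis1/Hoxa9 preleukemic cells of C57BL/6 mice, made from c-Kit+ fetal liver cells of E14.5 embryos by retroviral transduction with Meis1 and Hoxa9, which all groups carried. Control cells were Tut4 fl/fl;Tut7 fl/fl without Vav-iCre, and cDKO cells carried the same floxed alleles with Vav-iCre, a Cre driven by the Vav promoter in hematopoietic cells. The cells grew with SCF, IL-6 and IL-3, were labelled with 2.9 µM 4SU for 12 h, and were then chased without 4SU for 0, 60, 180 or 540 min. Each of the 8 groups held 3 biological replicates, 24 libraries in all, and in the labels the batch is the chase time.

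The proteasome degrades proteins that carry ubiquitin chains. Its 20S core is a barrel of alpha rings, which form the gate, around beta rings, of which Psmb5, Psmb6 and Psmb7 encode the proteolytic subunits. The 19S particle binds ubiquitin, removes it and unfolds the substrate with a ring of ATPases. Immune cells can replace the catalytic subunits by Psmb8, Psmb9 and Psmb10, which make the immunoproteasome and favour peptides for MHC class I, and PA28 (Psme1 and Psme2) is an activator induced with them. Transcription of proteasome genes is known to be driven together by NRF1 (Nfe2l1) through antioxidant response elements when proteasome activity is limiting.

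Promoters from 250 bases before to 50 after the start site were at hand from RefSeq (GRCm38.p6) for 41 of the 49 genes. The sequence TGACNNNGC, a loose core of the antioxidant response element, was searched on both strands. It was found in 6 of the 41 (14.6%), namely Psmb5, Psmb6, Psmc6, Psmd9, Psmd12 and Psme4, against 14.0% of all 27025 genes with a promoter. Its stricter form TGACTCAGC was found in 0 of the 41 and in 0.503% of all. CCAAT was found in 14 (34.1%) against 41.1%. CCGGAAG, a core bound by ETS family factors, was found in 14 (34.1%) against 9.93%, and no share was tested. The 27025 genes were not limited to those expressed in these cells, and a share among expressed genes is not given. TGACTCAGC is a special case of TGACNNNGC. The windows shown are those of both catalytic genes that held the first motif, and of Psmd4 and Psmc1, the genes that carried the clearest abundance and labelling differences and held the last one. Capitals mark the match, and in Psmc1 the motif lies on the opposite strand.
Psmb5, chr14:54618023-54618052, minus strand: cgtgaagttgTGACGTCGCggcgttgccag
Psmb6, chr11:70525338-70525367, plus strand: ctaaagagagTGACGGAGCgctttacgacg
Psmd4, chr3:95042721-95042750, minus strand: ttacagctgttCCGGAAGctgctgcgaagg
Psmc1, chr12:100110163-100110192, plus strand: tggtggatgcaCTTCCGGcggtggcgattt

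Each library held 4380235 to 7041311 reads in 3′UTRs (median 5321078). The libraries carry no molecular identifiers, and the number of replicates limits the precision. The targeted genes checked the labels first. Tut4 had 68.1, 75.2 and 86.3 CPM (read counts scaled to the 3′UTR reads of the library) in the control libraries at 0 min and 17.8, 30.2 and 18.6 in cDKO (log2 -1.75 ± 0.22 SE, edgeR adjusted p = 0.00118). Tut7 had 40.3, 34.6 and 45.1 in control and 16.7, 19.2 and 20.2 in cDKO (log2 -1.08 ± 0.17, edgeR adjusted p = 0.00388). Reads from both 3′ ends thus remained in cDKO, where a 3′ read does not show whether the deleted part is present.

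The cells expressed markers of myeloid blasts in both genotypes, but at different levels. The summed CPM of 10 progenitor and blast genes at 0 min ranged from 11310 to 11791 in control and from 7690 to 9275 in cDKO, with the protease gene Elane lower and Hoxa9 higher in every cDKO library. Meis1 was at 0 in the control libraries over its annotated 3′UTR. Markers of other cells moved too. The 7 erythroid genes summed to 0.752 to 2.12 CPM in control and 1307 to 1986 in cDKO, nearly all from Hbb-bt, while Hbb-bs, Gata1 and Epor were at 0 in those libraries. Of the 7 mast cell and basophil genes the sum was 21.5 to 27.6 against 149 to 247, with Cma1 and Tpsb2 at 0. Only 4 of the 7 were tested at 0 min, of which 2 were called higher in cDKO (edgeR) and no other had a change above 0. The 6 neutrophil genes summed to 51.3 to 79.7 against 0.438 to 1.60, the 5 macrophage genes to 74.6 to 93.4 against 192 to 292 with C1qa and C1qb at or near 0, and the 4 endothelial or stromal genes to 57.7 to 118 against 314 to 411 with Cdh5 and Col1a2 at 0. Of the 3 macrophage genes tested at 0 min, 1 was called higher in cDKO and 2 lower (edgeR), despite the higher sum. Only 1 of the 4 endothelial or stromal genes was expressed enough to be tested at 0 min, and it was called higher (log2 2.06). The 5 lymphoid genes were at or near 0 in both genotypes. The part of these differences in the results below was not tested.

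Proteasome transcripts were well covered, with short 3′UTRs. Of the 49 genes, 47 were expressed enough to be tested for abundance. Psma8, the spermatocyte alpha subunit, had 64 reads over the 24 libraries, and Psmb11, the catalytic subunit of the thymoproteasome, had 6, all of them multimapping. The annotated 3′UTRs of the 47 had a median length of 184 bases (range 45 to 2572), against 1061 for all 9260 genes with coverage, and 31.0% of their bases were T, against 29.2%. Their median coverage of T positions was 16347 against 4652. Reads of Psme2 (99.4% multimapping), Psme2b (77.9%), Psma3 (64.4%) and Psmd11 (34.4%) were shared with near-identical sequence elsewhere, so their values are uncertain. The 3′UTR of Psme1 overlaps that of Emc9 on the opposite strand.

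The median proteasome transcript kept more of its label through the chase than the median of all transcripts did. In control, the conversion rate, the share of covered T positions read as C, had a median of 1.54% over the 47 genes at 0 min (range 0.662 to 2.62%). The median gene kept 97.9% of its 0 min rate at 60 min, 84.3% at 180 min and 20.6% at 540 min, against 88.9, 54.4 and 7.60% for the median of all genes with coverage. In cDKO the rate at 0 min was lower, with a median of 0.707% (range 0.317 to 1.41%), and the shares kept were 97.8, 88.1 and 29.1%, against 91.4, 58.3 and 12.6% for all genes. The lower labelling belonged to whole libraries. Over all genes the 0 min rate ranged from 1.62 to 1.67% in control and from 0.542 to 0.845% in cDKO. At 540 min the library-wide rate was 0.304 to 0.330% and 0.162 to 0.209%. The rate without 4SU was not measured, since no unlabelled library was analysed here.

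Half-lives were fitted to the rates of the 12 libraries of a genotype, relative to 0 min. Of the 47 genes, 34 had 0 min rates with a relative SD below 0.3 in both genotypes, and 13 did not. Over the 34, half-lives had a median of 341 min in control cells and 417 min in cDKO cells, against 224 and 251 min for all 3712 genes kept, and 29 of the 34 lay above the median of all genes in control. The median log2 ratio of cDKO over control was 0.27 (quartiles -0.01 and 0.53), against 0.19 for all genes. The half-life was longer in cDKO for 25 of 34 (73.5%), where 68.6% of all genes were longer. The lengths depended on the fit. Without the 540 min libraries the medians were 733 and 831 min (all genes 282 and 317), and with a log-linear fit and a free intercept 229 and 306 min (all genes 152 and 192), when 33 of 34 were longer in cDKO against 85.5% of all genes. With an assumed background of 0.1% subtracted from every rate, the median log2 ratio fell to 0.13 over 27 proteasome genes and to 0.02 over all genes. It was 0.47 without cDKO replicate 1 and 0.41 without cDKO replicate 2, over the 25 and 26 genes that then met the SD limit.

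The median control half-life differed between the classes, and many of their ranges overlapped. The medians that follow are over all 47 genes, with no SD limit, and are given with no test. The constitutive beta ring had a median of 490 min (range 335 to 975) and the alpha ring 331 min (266 to 448). The 3 detected immunoproteasome beta subunits had 673 min (350 to 708) and the activators 390 min (326 to 1079). The ATPases of the 19S particle had 371 min (258 to 523) and its non-ATPase subunits 279 min (221 to 468). The chaperones had 180 min (165 to 325) for 19S assembly and 366 min (217 to 759) for 20S assembly, and the inhibitor PI31 (Psmf1) had 225 min. So the beta genes lay high and the 19S chaperone genes low. In cDKO the medians were 750 min for the beta ring, 420 for the alpha ring, 2116 for the immunoproteasome beta subunits, 709 for the activators, 446 for the ATPases, 349 for the non-ATPase subunits, 195 and 373 for the chaperones of 19S and 20S assembly and 338 for Psmf1. Values far beyond the 540 min of chase are extrapolated from a small fall.

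**Figure D1:**
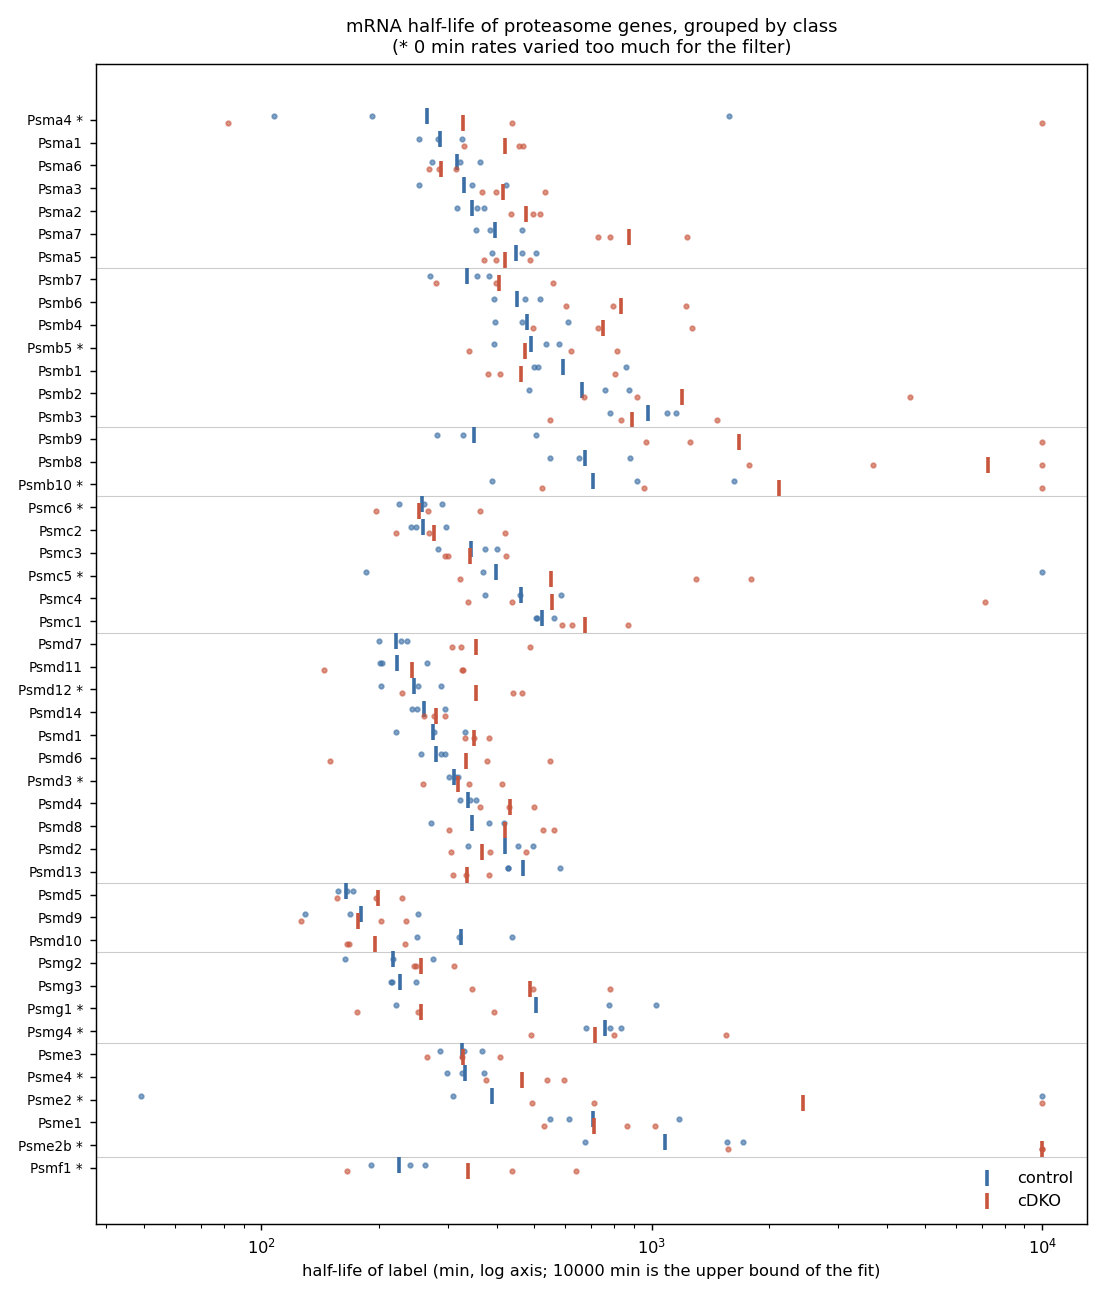
Half-lives (min, log axis) of the 47 proteasome genes with coverage, grouped by class, where ticks are the fits over the 12 libraries of control or cDKO, points are replicate half-lives and asterisks mark genes outside the SD limit at 0 min. Beta ring genes reached 975 min in control, 19S assembly chaperones began at 165 min, and Psmb8 lay at 673 min in control and 7263 min in cDKO.

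The shortest control half-lives belonged to assembly chaperones. Psmd5 (S5b), which binds the base of the 19S particle during assembly, had replicate half-lives of 171, 166 and 157 min in control against 196, 229 and 156 min in cDKO. Its rate fell from 2.13, 1.99 and 2.09% at 0 min to 0.0256, 0.188 and 0.143% at 540 min in control, and its abundance at 0 min was 81.9, 95.1 and 91.9 CPM in control and 98.6, 91.6 and 109 in cDKO. The genotypes overlapped in half-life and abundance. Psmd9 (p27), another chaperone of the base, had replicate half-lives of 169, 130 and 251 min in control against 203, 126 and 235 min in cDKO. Its 0 min abundance was 77.4, 80.8 and 85.6 CPM and 71.9, 82.1 and 57.9 CPM. Psmg2 (PAC2), which guides assembly of the alpha ring, had half-lives of 275, 217 and 164 min in control against 246, 249 and 311 min in cDKO. Its 0 min abundance was 39.7, 34.6 and 43.8 CPM in control and 36.8, 56.1 and 52.4 in cDKO. In none of these genes did the genotypes separate in half-life or in abundance at 0 min.

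The longest control half-lives were those of Psme2b, Psmb3 and Psmg4, and Psme2b and Psmg4 did not meet the SD limit. Psmb3, a structural beta subunit, had replicate half-lives of 1090, 780.1 and 1152 min in control against 832, 1471 and 550 min in cDKO. Its rate was 1.30, 1.25 and 1.19% at 0 min and still 0.821, 0.594 and 0.836% at 540 min in control, 60.3% of the start. In cDKO its mean rate at 540 min was 62.4% of that at 0 min, and its abundance at 0 min was 282, 272 and 301 CPM in control and 279, 299 and 271 in cDKO. Psmb3 was thus slow in both genotypes, which overlapped. Psmg4 (PAC4), another 20S assembly chaperone, had half-lives of 835, 781 and 678 min in control against 801, 489.9 and 1549 min in cDKO, with 47.2, 66.1 and 52.2 CPM against 40.9, 52.8 and 46.2 at 0 min. Psme2b, a near copy of the PA28 beta gene Psme2, had half-lives of 1558, 673 and 1707 min in control, and 1562 min and, for both other replicates, the upper bound of 10000 min in cDKO, where a value at the bound means that no fall was measured. Its 0 min abundance was 69.5, 87.0 and 76.9 CPM in control and 70.8, 60.4 and 90.7 in cDKO, and most of its reads were multimapping.

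Each replicate half-life took rates relative to the 0 min rate of the same replicate number. These numbers did not pair conversion rates gene by gene, so another matching of libraries could give other counts. Replicate half-lives of the genotypes did not overlap for 12 of the 34 genes (35.3%), against 20.3% of all genes kept. They were longer in every cDKO replicate for 10 of 34 (29.4%, against 17% of all genes) and shorter for 2 of 34 (5.88%, against 3.23%). These shares were not matched for coverage of T positions, which was higher for the proteasome genes, and its part in them was not tested. Each such gene had the smallest p that an exact permutation test of 3 against 3 allows, two-sided p = 0.1, which cannot pass 0.05. In the 20S core, the half-life went from 286 to 420 min for Psma1, from 347 to 476 min for Psma2, from 397 to 873 min for Psma7 and from 452 to 831 min for the catalytic subunit gene Psmb6. In the 19S particle it went from 523 to 672 min for the ATPase Psmc1, from 339 to 432 min for the ubiquitin receptor Psmd4 and from 221 to 355 min for Psmd7, a partner of the deubiquitinase Psmd14 in the lid. The 20S chaperone Psmg3 (PAC3) went from 226 to 489 min. The immunoproteasome genes Psmb8 and Psmb9 went from 673 to 7263 min and from 350 to 1667 min. Shorter in cDKO were Psmd10 (gankyrin), a 19S chaperone, from 325 to 195 min, and the lid subunit Psmd13, from 468 to 336 min.

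The largest of these ratios belonged to Psmb8, the chymotrypsin-like immunoproteasome subunit. Its replicate half-lives were 649, 876 and 548 min in control against 1777, 10000 and 3675 min in cDKO, of which 10000 min is the bound. Its rate at 0 min was 2.54, 2.66 and 2.64% in control, the highest mean of the 47 genes, and 1.49, 1.34 and 1.39% in cDKO. At 540 min it was 1.42, 1.73 and 1.42% in control and 1.09, 1.48 and 1.27% in cDKO. The rate left was thus 58.3% in control and 91.0% in cDKO, and the cDKO libraries at 540 min overlapped those at 0 min. How far a fixed T-to-C difference in this interval adds to those rates was not tested. For Psmb9, replicate half-lives were 328, 282 and 504 min in control against 1254, 10000 and 963 min in cDKO, from rates at 0 min of 1.31, 1.37 and 1.11% and of 0.386, 0.270 and 0.296%. In cDKO the rates at 60 min were 0.677, 0.649 and 0.461%, all above those at 0 min, and after 180 min they were 0.603, 0.293 and 0.372%. The last rates, after 540 min, overlapped between control (0.106, 0.189 and 0.321%) and cDKO (0.139, 0.231 and 0.124%), so the cDKO half-life rests on low 0 min rates.

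The model over all genes called few differences in decay. The decay difference, the change of the log2 conversion rate per hour in cDKO minus that in control, was called for 0 of 47 proteasome genes and for 0.13% of the 9207 genes tested (edgeR, adjusted p under 0.05). At an unadjusted p under 0.05 there were 8 of 47 (17.0%), against 17.2% of all genes. DESeq2 called 3, Psma7, Psmd6 and Psmg3 (2.25% of all genes), and edgeR with the replicate number as a block called 1, Psma7 (0.641% of all). The difference was positive, a slower fall in cDKO, for 44 of 47 genes, with a median of 0.06 log2 per hour against 0.07 over all genes. With the library-wide rate of each library in the offset, 27 of 47 were positive, with a median of 0.01 against 0.03. In simulated data, with changed genes drawn from all those tested, edgeR recovered 3.39% of decay differences of 0.1 log2 per hour and 21.1% of those of 0.2. Differences of the size seen here could thus seldom be called in a gene so drawn. Recovery for the proteasome genes alone, which had higher coverage, was not simulated.

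The 3 genes nearest the threshold had these rates. For Psma7, an alpha ring subunit, the rate at 0 min was 1.24, 1.49 and 1.20% in control and 0.503, 0.580 and 0.465% in cDKO, and at 540 min 0.284, 0.396 and 0.402% against 0.312, 0.318 and 0.293%. The rates of the genotypes lay apart at 0 min and met at 540 min (0.12 ± 0.04 SE log2 per hour, edgeR adjusted p = 0.10, and 0.0412 with the replicate number as a block). Psmd6, a lid subunit, had rates of 1.71, 1.77 and 1.88% in control and 0.781, 0.727 and 0.683% in cDKO at 0 min. At 540 min they were 0.0713, 0.133 and 0.168% and 0.345, 0.151 and 0.0899%, with cDKO replicate 1 above the others. Its decay difference was 0.22 ± 0.06 log2 per hour (edgeR adjusted p = 0.080), and without the 540 min libraries it was -0.01. Psmg3 had rates of 2.56, 2.72 and 2.54% against 1.48, 1.56 and 1.18% at 0 min, and 0.589, 0.831 and 0.680% against 0.795, 0.646 and 0.730% at 540 min, where the genotypes overlapped (0.10 ± 0.03, edgeR adjusted p = 0.125).

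**Figure D2:**
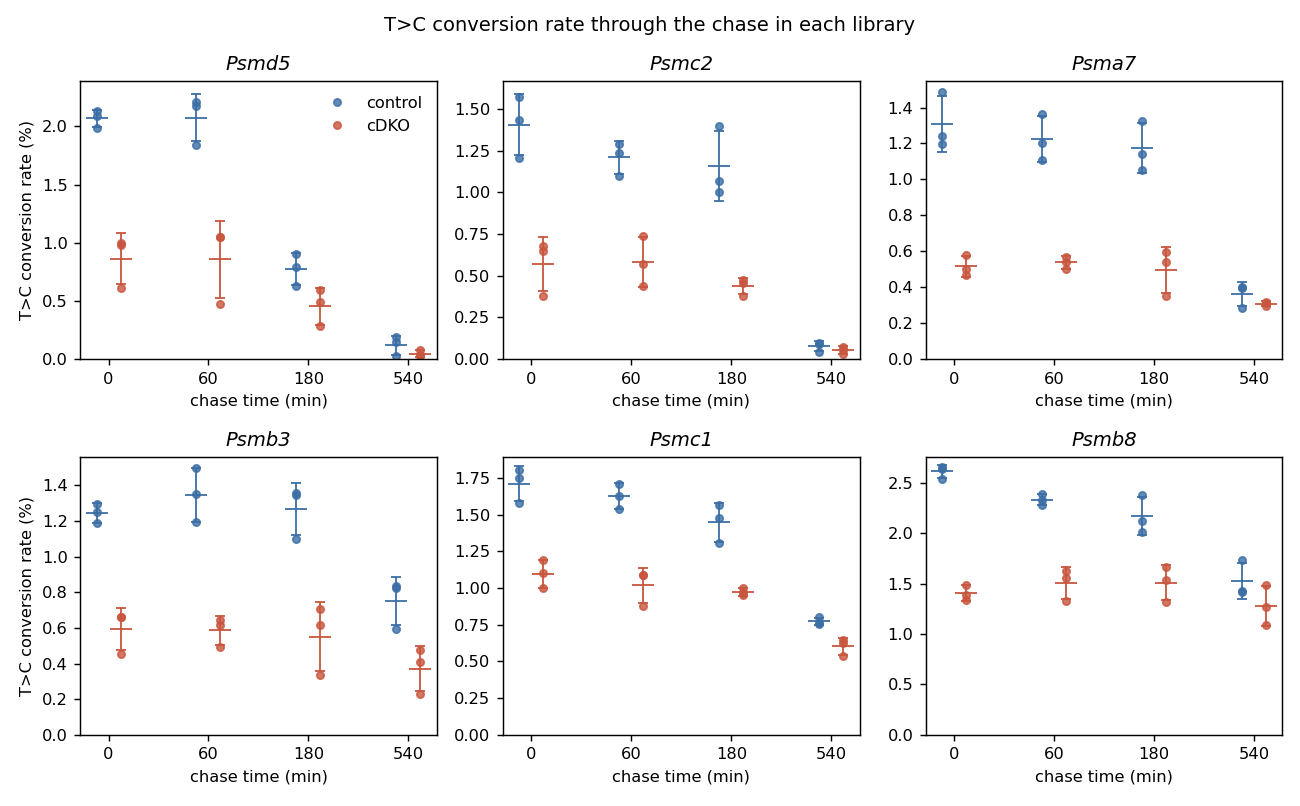
Conversion rate (T>C, %) of Psmd5, Psmc2, Psma7, Psmb3, Psmc1 and Psmb8 in each library against chase time (min, evenly spaced), with points for libraries of control and cDKO and lines for the mean ± SD (n = 3). The rate left at 540 min in control was 5.48% of that at 0 min for Psmc2 (9.41% in cDKO) and 58.3% for Psmb8 (91.0% in cDKO).

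Labelling at 0 min was compared relative to the library-wide rate. It was called for 1 of 46 genes (2.17%), higher in cDKO, where 0.286% of the 8753 genes tested were called higher and 0.32% in either direction. Psmc5 was not tested, with under 50 conversions. The gene called was Psmc1, an ATPase of the 19S base. Its rate was 1.58, 1.75 and 1.80% in control and 1.10, 1.19 and 0.999% in cDKO. Its rate was thus lower in cDKO, as in the whole libraries, but by less than theirs, and its labelling relative to the library was higher (log2 0.53 ± 0.09 SE, edgeR adjusted p = 0.00111). Without the library-wide rate in the offset the same gene was at log2 -0.64, and 44 of 46 genes were then called lower, as were 85% of all genes. Without control replicate 1 there was no call (13 of all genes). Without cDKO replicate 2 there were 2 (49 of all), with Psmb8 as the other. Psmc1 had 494, 406 and 473 CPM in control at 0 min and 455, 465 and 417 in cDKO, which overlapped. Among the others the log2 difference ranged from -0.75 (Psmb9) to 0.83 (Psmg1, PAC1, a 20S chaperone), with a median over the 46 of 0.03.

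The summed abundance of all proteasome genes was lower in cDKO at 60 and 180 min and higher at 540 min. This sum holds 3 chromosome 3 genes whose means were lower in cDKO at all 4 times. The summed CPM of the proteasome genes was 9699 ± 163 in control and 9422 ± 180.5 in cDKO at 0 min (SD, n = 3), with ranges of 9570.4 to 9883 and 9233 to 9593 that overlapped. It was lower in cDKO without overlap at 60 min (9972 to 10094 against 9513 to 9629) and 180 min (9886 to 10049 against 9413 to 9749). At 540 min it was higher in cDKO without overlap (9281 to 9389 against 9390.4 to 9809), with the nearest libraries close to each other. At 60 and 180 min the mean summed CPM was lower in cDKO for the alpha ring, the beta ring and the 19S non-ATPase subunits. It was higher in every other class. Each of the lower classes holds 1 chromosome 3 gene (Psma5, Psmb4 or Psmd4), described below. At 60 min Psmd4 alone had a mean of 668 in control and 385 in cDKO. A sum without these genes is not given. In bulk libraries, fewer cells of a type and less RNA per cell cannot be told apart. At 0 min 2 of 47 genes (4.26%) were called (edgeR, adjusted p under 0.05), both lower, against 13.4% of the 10186 genes tested in either direction and 6.64% lower. The median log2 change was -0.02, and the median absolute change 0.18 against 0.24 over all genes. The change was under 0.5 for 45 of 47 genes, against 75.6% of all. These 47 genes had a median of 158 CPM against 37.0 for all, and its part in the smaller spread was not tested. Without cDKO replicate 2 the calls rose to 7 (2223 of all 10421 genes). Without control replicate 2 or 3 there was 1 (633 and 689 of all).

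At 60 min 10 of 47 were called (21.3%, against 20.2% of all genes), with 3 higher (9.97% of all), Psmb7, Psmb8 and Psme4 (PA200, a nuclear activator), by log2 0.22, 0.29 and 0.40. The 7 lower (10.2% of all) were Psma5, Psma6, Psmb2, Psmb3, Psmb4, Psmd2 (a large 19S scaffold) and Psmd4, by log2 -0.23 to -0.82. At 180 min 9 of 47 were called (19.1%, against 18.9%), with 2 higher (9.1% of all), Psma2 and Psmd13, by 0.21 and 0.28. The 7 lower (9.78% of all) were Psma3, Psma5, Psma6, Psmb2, Psmb4, Psmd4 and Psme2, by -0.28 to -0.79. At 540 min 8 of 47 were called (17.0%, against 19.2%), with 5 higher (8.89% of all), Psmb10, Psmc2, Psmc5, Psmd8 and Psme3, by 0.29 to 0.52. The 3 lower (10.4% of all) were Psmb4, Psmd4 and Psme2b, by -0.36, -0.67 and -0.38. The shares called were thus near those of all genes at 60, 180 and 540 min, and below that of all genes at 0 min. Over the 4 times 20 of 47 were called at least once (42.6%, against 31.7% of the 9896 genes tested at every time). Lower at all 4 times were 2 of 47 (4.26%, against 4.39%), Psmb4 and Psmd4. Single libraries moved these counts, and leaving out a control replicate also lowered the calls over all genes. At 60 min there were 5 or 6 calls without any one control replicate or cDKO replicate 2, at 180 min 3 to 5 without any one control replicate, and at 540 min 4 without control replicate 1 or 3.

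**Figure D3:**
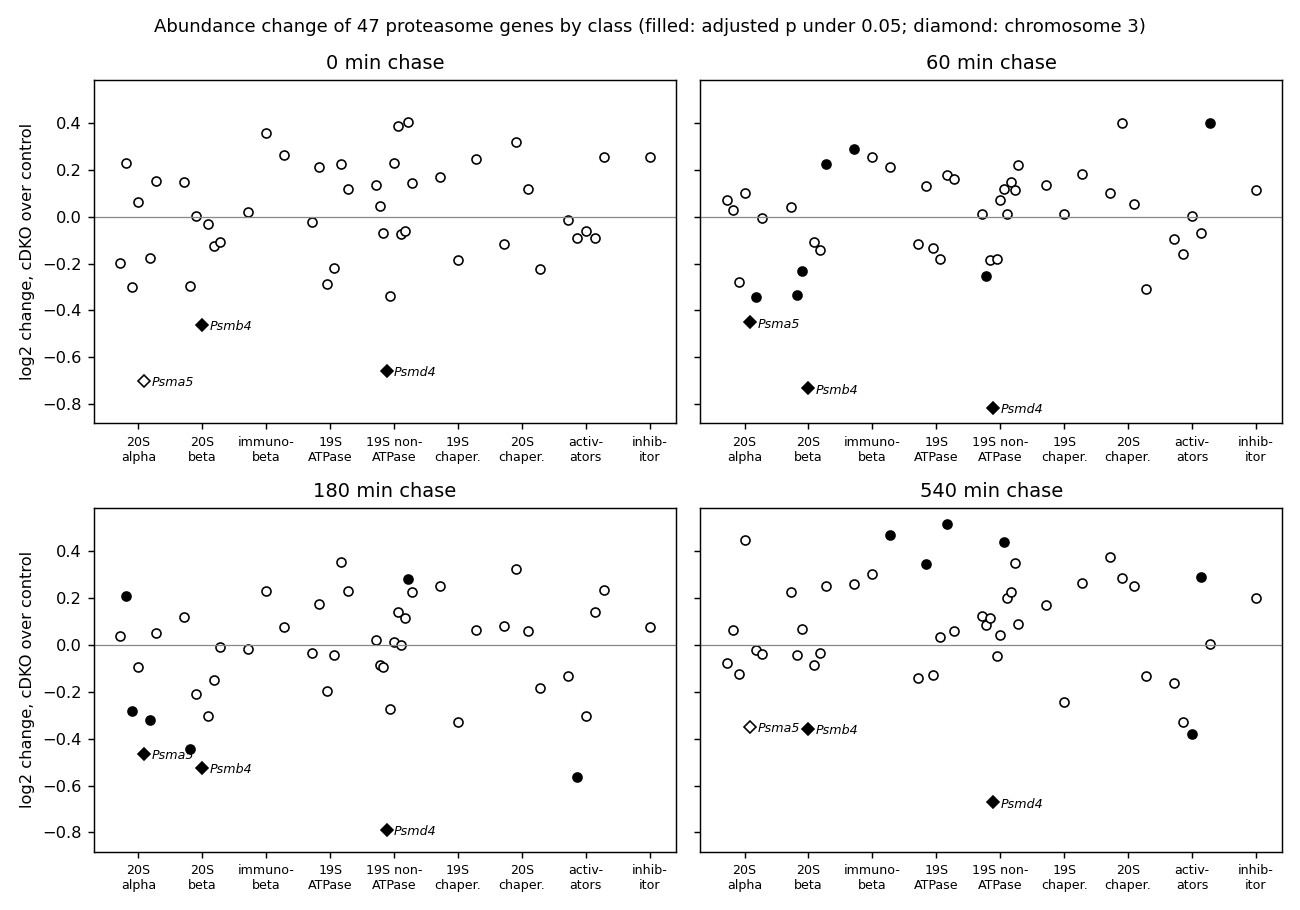
The log2 difference in abundance (cDKO over control, edgeR) of each of 47 proteasome genes, by class, at each of the 4 chase times, with filled symbols for adjusted p under 0.05 and diamonds for genes on chromosome 3. Most genes lie within 0.5 of 0, and Psmb4 and Psmd4 are filled and below 0 at every time.

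Both genes that were lower at every time lay on chromosome 3, and so did Psma5. Psmb4, a structural beta subunit, has its 3′UTR at chr3:94884324-94884427 (mm10, minus strand). It had 525, 499.9 and 512 CPM in control and 366, 407 and 330.3 in cDKO at 0 min, which did not overlap (log2 -0.46 ± 0.10 SE, edgeR adjusted p = 0.0186, highest alternative 0.0889). Psmd4 (S5a), the ubiquitin receptor that holds chains on the 19S particle, lies at chr3:95032691-95032813 on the minus strand. It had 699, 617 and 569 CPM in control and 383, 445 and 354 in cDKO at 0 min, again apart (log2 -0.66 ± 0.12, edgeR adjusted p = 0.00872, highest alternative 0.0496). Psma5, an alpha subunit at chr3:108279813-108279952 on the plus strand, had 188, 222.5 and 237 CPM in control and 155, 75 and 166 in cDKO, with cDKO replicate 2 far below the others. It was apart from control in each replicate but was not called at 0 min (log2 -0.70 ± 0.24, edgeR adjusted p = 0.096), and it was lower at 60 and 180 min.

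The other times repeated the order for Psmb4 and Psmd4. Psmb4 had 574 ± 11, 553 ± 12.3 and 492 ± 27.8 CPM (SD, n = 3) in control at 60, 180 and 540 min, and 350.4 ± 14.8, 389 ± 24.1 and 385 ± 7.18 in cDKO. Psmd4 had 668 ± 56.4, 663 ± 32.9 and 650.1 ± 33.7 CPM in control and 385 ± 14.3, 389 ± 29.2 and 410.4 ± 18.4 in cDKO. Both genes were on a chromosome that was lower as a whole. The median log2 difference of the 483 chromosome 3 genes tested at 0 min was -0.51, against 0.02 elsewhere, and it was -0.48, -0.52 and -0.52 at 60, 180 and 540 min. Chromosome 3 took 5.85 to 6.14% of reads in control libraries and 3.95 to 4.44% in cDKO. Relative to the chromosome 3 median, Psma5, Psmb4 and Psmd4 were at log2 -0.19, 0.05 and -0.15 at 0 min and at 0.03, -0.26 and -0.34 at 60 min. Labelling and decay showed no such shift, with chromosome 3 medians of -0.0032 and 0.068 against 0.0043 and 0.0705 elsewhere. The cause of the lower chromosome was not tested. Leaving chromosome 3 out of the table, which was chosen after seeing the data, removes these 3 genes and with them both calls at 0 min. Of the other 44 proteasome genes, 0, 6, 5 and 5 were then called at 0, 60, 180 and 540 min, against 11.1, 17.7, 16.5 and 16.7% of all genes left.

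**Figure D4:**
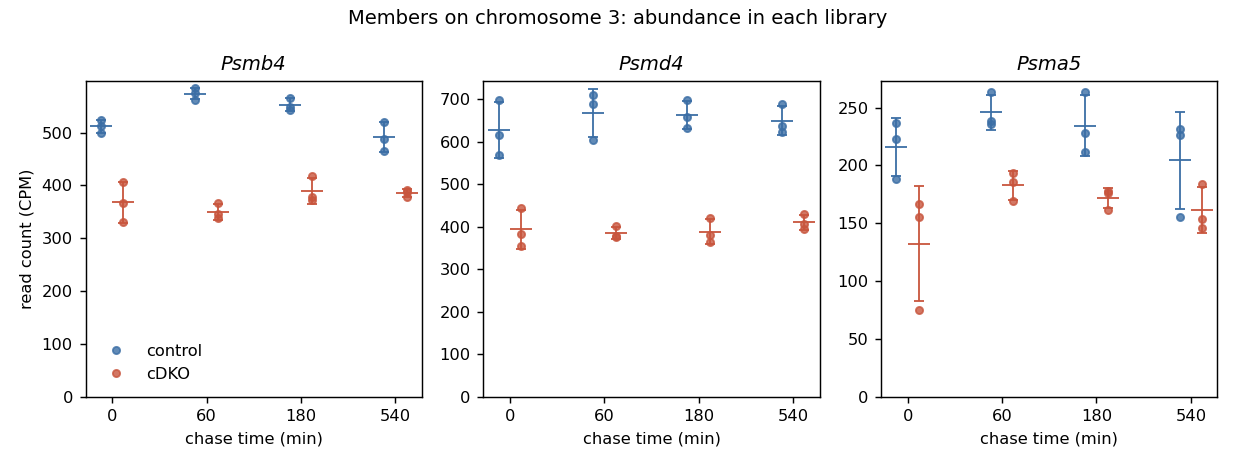
Abundance (CPM) of the 3 proteasome genes on chromosome 3 in each of the 24 libraries, by chase time (evenly spaced) and genotype, with points for libraries and lines for the mean ± SD (n = 3). At 0 min Psmd4 lies at 569 to 699 in control and 354 to 445 in cDKO, and Psmb4 at 499.9 to 525 and 330.3 to 407.

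The constitutive catalytic subunits and their immunoproteasome counterparts were set side by side at 0 min. Psmb5 (chymotrypsin-like) had 72.4, 58.8 and 58.6 CPM in control and 61.4, 46.8 and 76.3 in cDKO. Psmb6 (caspase-like) had 179, 189.8 and 169 in control and 165, 185 and 136 in cDKO. Psmb7 (trypsin-like) had 275, 275 and 270.2 in control and 298, 204 and 254 in cDKO. All 3 overlapped between genotypes. Psmb8, the counterpart of Psmb5, had 478, 521 and 434 in control and 483, 443 and 513 in cDKO. Psmb9, the counterpart of Psmb6, had 58.9, 46.0 and 57.5 in control and 77.6, 33.5 and 96.6 in cDKO. Psmb10, the counterpart of Psmb7, had 65.0, 71.0 and 66.4 in control and 81.5, 99.0 and 59.2 in cDKO. These overlapped as well, with a wider spread in cDKO for Psmb9 and Psmb10. At 540 min Psmb10 separated, with 53.9, 59.9 and 57.8 in control and 72.0, 80.0 and 86.7 in cDKO (log2 0.47 ± 0.11, edgeR adjusted p = 0.0185, highest alternative 0.0749).

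The activators gave no call at 0 min. Psme1 (PA28 alpha) had 142, 127 and 139 CPM in control and 139, 139 and 122 in cDKO. Psme2 (PA28 beta) had 33.7, 48.1 and 39.7 in control and 38.6, 30.4 and 44.3 in cDKO, nearly all from multimapping reads. Psme3 (PA28 gamma), which acts in the nucleus, had 271, 252 and 272 in control and 238, 269.7 and 232 in cDKO. The genotypes overlapped for all 3 at 0 min. At 540 min Psme3 had 183, 199 and 207 in control and 233, 265 and 227 in cDKO, which did not overlap (log2 0.29 ± 0.09, edgeR adjusted p = 0.0415, highest alternative 0.139). The genes called higher with it at 540 min were 2 ATPases and a lid subunit beside Psmb10. Psmc2 had 304, 309.8 and 293 CPM in control and 388, 402 and 368 in cDKO (log2 0.35 ± 0.07, edgeR adjusted p = 0.0059). Psmd8 had 294, 295 and 301 against 388, 376 and 450.4 (log2 0.44 ± 0.08, edgeR adjusted p = 0.0053). Psmc5 had 22.9, 28.6 and 23.7 against 38.6, 34.3 and 35.4 (log2 0.52 ± 0.15, edgeR adjusted p = 0.0347, highest alternative 0.119).

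A half-life from conversion rates takes abundance as steady during the chase. In control, 11 of 47 genes differed between 540 and 0 min (23.4%, against 16.2% of all 10226 genes), 10 of them lower (21.3%, against 8.18%). The 1 higher (8.06% of all) was Psmd5, by log2 0.42. Lower were Psma3, Psma6, Psmb2, Psmb7, Psmb8, the ATPase Psmc4, the 19S scaffold Psmd1, Psmd6, Psmd11 and Psme3, by log2 -0.23 (Psmd1) to -0.47 (Psme3), with a median over the 47 of -0.13. There were 7 calls without control replicate 2 at 0 min or replicate 1 at 540 min (1007 and 1193 of all genes, against 1660). The cDKO cells gave 0 of 47 calls by edgeR (0.117% of all genes) and 0 by DESeq2, with 3 of 47 at an unadjusted p under 0.05 against 11.1% of all. In simulated data, with changed genes again drawn from all those tested, edgeR recovered 41.7% of changes of 0.5 log2 in control and 4.23% in cDKO. The absence of calls in cDKO thus does not show steady abundance there. The difference between the genotypes' changes was called for 0 of 47 genes by edgeR and by DESeq2 (0% of all genes by edgeR), with 4 of 47 at an unadjusted p under 0.05 against 5.23% of all. Chase time and batch cannot be told apart here.

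The remaining genes were not called by edgeR in abundance, labelling or decay, nor in the change over the chase, in the tests as first given. These were Psma1, Psma4 and Psma7 of the alpha ring, Psmb1, Psmb5, Psmb6 and Psmb9 of the beta subunits, the ATPases Psmc3 and Psmc6, the 19S subunits Psmd3, Psmd7, Psmd12 and Psmd14, the chaperones Psmd9, Psmd10 and Psmg1 to Psmg4, the activator Psme1 and the inhibitor Psmf1. Psma7 and Psmg3 among them were called in decay by the alternatives named above.

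Other genes of the pathway were read from a list of 26 partners of the proteasome, of which 25 were in the tables. At 0 min 0 were called higher and 1 lower, Ubqln4, a shuttle for ubiquitylated substrates that also lies on chromosome 3 (log2 -0.48, edgeR adjusted p = 0.0446). At 60 min Ecpas, which binds the 26S proteasome, was higher (log2 0.45), and the assembly factor Pomp, Ubqln4, the shuttle Rad23b and Nfe2l2 (NRF2) were lower (-0.25 to -0.41). At 180 and at 540 min 1 was called higher and 1 lower, the lower being Ubqln4 (-0.65) and Nfe2l2 (-0.44). Over all genes 13.4, 20.2, 18.9 and 19.2% were called in either direction at 0, 60, 180 and 540 min. No partner was called in labelling or decay, where 0.32 and 0.13% of all genes were called. Nfe2l1 itself had 55.9, 50.9 and 55.1 CPM in control and 72.4, 53.5 and 62.0 in cDKO at 0 min (log2 0.22 ± 0.14, edgeR adjusted p = 0.351).

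Of the 11 genes of antigen processing, which use the peptides of the immunoproteasome, 0 were called higher and 2 lower at 0 min. Over all genes 13.4% were called in either direction at 0 min and 6.64% lower. At 60, 180 and 540 min 20.2, 18.9 and 19.2% of all genes were called. Tapbp (tapasin), which loads MHC class I, had 444, 455 and 439 CPM in control and 343, 359 and 332 in cDKO (log2 -0.36 ± 0.08, edgeR adjusted p = 0.0228). Irf8, a transcription factor of the myeloid lineage, had 141, 189.8 and 133 in control and 57.5, 58.1 and 49.97 in cDKO (log2 -1.47 ± 0.16, edgeR adjusted p = 0.00043). Both were apart in every replicate. They were also lower at each later time, and Irf1, which activates immunoproteasome genes, was lower at 180 and 540 min (log2 -0.50 and -0.52). The MHC class I gene H2-D1 was higher at 60 and 540 min (0.56 and 0.46) and H2-K1 at 540 min (1.01). In decay none was called, and in labelling 1 was called lower (all genes 0.32% in either direction).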

How the data were processed

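SLAM-seq was performed by the authors on control and cDKO cells, with 3′-end (QuantSeq FWD) libraries. Per the file headers, SlamDunk (v 0.4.3) gave deposited counts of reads, conversions and covered T positions per 3′UTR interval of mm10 (GRCm38). The deposited conversion rate is a fraction of covered T positions, and the deposited CPM is scaled to filtered reads. Alignment, filter and masking settings are not given in the sources used here. Rates and CPM (scaled to 3′UTR reads) were recomputed from the counts.

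Each table held 39419 lines, and 99.18% were matched to RefSeq genes. For each gene, the longest of overlapping intervals was kept. Abundance, labelling and decay were tested with edgeR (4.0.16, quasi-likelihood, TMM for abundance, R 4.3.3) over all genes with Benjamini-Hochberg adjustment, with DESeq2 (1.42.0) as an alternative. SE is the log2 change over the root of F. Conversions were tested with T coverage as the offset (for labelling times the library-wide rate), on genes with 100 or more covered T positions per library and 50 or more conversions. Half-lives were single exponentials by least squares, bounded to 1 and 10000 min. Tests were checked on simulated data. Each gene was named by a rule: every proteasome gene once with its class, and values in each library at 0 min for called genes, the 3 longest and 3 shortest half-lives, catalytic and PA28 genes and those on chromosome 3. Members and lists were chosen with earlier results of these data known. The values of 1 partner gene are not reported here.

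Replicate numbers came from the labels. Same-numbered libraries deviated together in read counts for the chase change in cDKO (r = 0.263, 0.556 and 0.689), which pairs them there. They did not in the other read count comparisons nor, gene by gene, in conversion rates (r from -0.0433 to 0.0747), although the library-wide rate was lowest in cDKO replicate 3 at all 4 chase times. No libraries were duplicates.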

Additional observations from a re-analysis of the deposited data

How the results depend on the processing

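Direction and side of the threshold held in 388 of 507 alternatives over 45 results of single genes, 107 lost and 10 gained a call, and 2 reversed. Both reversals were Psmd6, whose decay difference was -0.0073 log2 per hour without the 540 min libraries, and Psmc1, whose labelling was -0.64 without the library-wide rate. The number of proteasome genes called at 0 min was 5 with DESeq2, 4 without the filter on low counts, and 12 with all 24 libraries in the fit or with counts summed over the chase times, when 2292 and 3433 of all genes were called in place of 1360. At 60 min it was 6 with all lines of a gene summed. With chromosome 3 left out, chosen after seeing the data, it was 0, 6, 5 and 5 at the 4 times, by removal of 3 of the genes and adjustment of unchanged p-values over the genes left. Without the library-wide rate, 44 genes were called in labelling (7444 of all against 28). DESeq2 called 3 in decay (207 of all against 12) and 0 in the cDKO chase change (123 of all against 12) and the difference (6 of all against 0). In decay, 1 of all genes was called without the 540 min libraries, 4 with 0.1% subtracted and 23 with the library-wide rate. The half-life ratio was 0.13 with 0.1% subtracted. For the other moved values the cause was not tested.

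With the replicate number as a block, 2, 7, 8 and 5 genes were called in abundance at 0, 60, 180 and 540 min, 1 in labelling and 1 in decay (59 of all), 11 in the control chase change and 0 in that of cDKO (128 of all against 12) and in their difference (7 of all against 0). At 540 min, 5 stood against 8.

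Leaving out a replicate gave 1 to 7 calls at 0 min, 5 to 9 at 60, 3 to 10 at 180 and 4 to 8 at 540 min, 7 to 14 in the control chase change, 0 in that of cDKO and in the difference, 0 to 2 in labelling and 0 in decay, and half-life ratios of 0.19 to 0.47. Over all genes, 633 to 2223, 1296 to 2331, 1155 to 2161 and 1182 to 2070 were then called in abundance at the 4 times, 1007 to 1722 in the control and 0 to 5 in the cDKO chase change, 13 to 49 in labelling and 3 to 30 in decay. Depth limits the rates in cDKO at 540 min, where few conversions are left.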
